A study of Mus musculus with 12 samples.

Results

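Desmosomes hold neighbouring keratinocytes together, and the transcripts of 10 desmosome genes were followed here in mouse skin: the desmogleins Dsg1a, Dsg1b, Dsg2, Dsg3 and Dsg4, the desmocollins Dsc1, Dsc2 and Dsc3, and the plaque genes Dsp and Pkp1. They were chosen by symbol from the 52636 genes of the count table, with earlier results of these data known. All 10 passed the filter on low counts that left 18822 genes for testing. The skin came from 4 groups of 3 mice on the C57BL/6J background, aged 3 months. Mice named KO (Cdc42-/-) carried floxed Cdc42 and a Cre recombinase under the keratin 5 (K5) promoter, which is active in basal keratinocytes and leaves Cdc42 intact in cells that never used it, and mice named WT lacked Cre and carried 1 or 2 floxed alleles. The WT and KO groups received the vehicle, normal saline with HPMC, as negative control. Zinc oxide nanoparticles (ZnO NPs) were put on shaved dorsal skin continuously for 14 days in the WT+ZnO NPs group and the KO+ZnO NPs group. The study's methods call the 3 libraries of a group biological replicates, and p-values measure the spread between these libraries. The comparisons ask whether loss of Cdc42, which impairs the epidermal barrier in this model, and ZnO NP exposure went with other levels of the genes that join epidermal cells.

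In a desmosome the desmogleins and desmocollins, which are cadherins, bind across the gap between cells. Inside the cell their tails bind plakoglobin and plakophilins, and desmoplakin, the product of Dsp, ties this plaque to keratin filaments. Which cadherins a keratinocyte makes changes with its layer and lineage. Dsg3 and Dsc3 are strongest in the basal layer, Dsg1 isoforms and Dsc1 in the suprabasal layers, Dsg2 and Dsc2 are widespread in epithelia and scarce in interfollicular epidermis, and Dsg4 is made in the hair shaft cells of growing follicles and in the uppermost epidermis. Dsg4 is therefore treated as the follicular member, Dsg2 and Dsc2 as broad epithelial members, Dsp as a member of all desmosomes, and the rest as epidermal members.

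The promoter of Dsp, which encodes desmoplakin, is shown because it was the 1 member promoter read from the RefSeq table used here. It is the RefSeq sequence of the 250 bases before the transcript start on the plus strand of GRCm38.p6, chr13:38151044-38151293, with the GC box (GGGCGG, searched on both strands) in capitals.
Dsp promoter: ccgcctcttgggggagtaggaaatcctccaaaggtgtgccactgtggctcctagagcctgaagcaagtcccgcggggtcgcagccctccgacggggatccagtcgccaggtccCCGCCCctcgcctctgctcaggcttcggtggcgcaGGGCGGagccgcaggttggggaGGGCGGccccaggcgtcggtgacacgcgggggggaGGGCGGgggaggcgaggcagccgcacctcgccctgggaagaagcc
It held 4 GC boxes, which begin at -137, -102, -80 and -45 from the start, and 32.7% of 32851 RefSeq promoters of this length held at least 1. Of 4 other motifs searched on both strands, none was found in this window. They were the AP-1 letters TGANTCA, held by 6.75% of promoters, the KLF-type letters CACCC, held by 52.0%, the grainyhead letters AACNGG, held by 32.1%, and the TATA box TATAAA, held by 12.4%.

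The 8 cadherin genes lie in a cluster on chromosome 18 of GRCm38 (mm10). On the minus strand are Dsc3 (ENSMUSG00000059898, 19960930 to 20002351), Dsc2 (ENSMUSG00000024331, 20030633 to 20059554) and Dsc1 (ENSMUSG00000044322, 20084184 to 20114871). On the plus strand follow Dsg1a (ENSMUSG00000069441, 20310811 to 20343350), Dsg1b (ENSMUSG00000061928, 20376729 to 20410196), Dsg4 (ENSMUSG00000001804, 20436175 to 20471821), Dsg3 (ENSMUSG00000056632, 20510274 to 20547459) and Dsg2 (ENSMUSG00000044393, 20558074 to 20604521). Dsp (ENSMUSG00000054889) is on the plus strand of chromosome 13 from 38151294 to 38198577, and Pkp1 (ENSMUSG00000026413) on the minus strand of chromosome 1 from 135871395 to 135919207. Counts of the Dsg1 copies are uncertain, because 35.0% of the 50-base stretches of Dsg1a and 48.9% of those of Dsg1b also occur in another gene, mostly in each other or in Dsg1c. The share was 4.66% for Dsp, 3.53% for Dsg2, 0.116% for Dsg3 and 0 for the other 5 members. Dsg2 overlaps the annotated gene Gm16090, Dsp overlaps Gm10129 and Pkp1 overlaps Gm36938.

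Total counts ranged from 21076320 to 28867802 per library. Levels are CPM, a gene's counts per 1000000 counts of its library, scaled by edgeR's TMM factors, and errors are SD with n = 3. Cdc42 was at 606.1 to 628.4 CPM in the WT libraries, 415.4 to 464.0 in KO, 313.5 to 453.0 in the KO+ZnO NPs-labelled libraries, and 310.7 to 350.1 in those labelled WT+ZnO NPs, so it went against that last label. Y-linked transcripts were present in 5 libraries (all 3 labelled WT+ZnO NPs, KO replicate 1 and KO+ZnO NPs replicate 1), and the other 7 held Xist. The study's methods describe the KO mice as female. Sex and ZnO NPs cannot be told apart between the WT+ZnO NPs-labelled libraries and WT. Defining markers of keratinocytes were present in every library, since Krt5, Krt14, Krt15, Itga6, Itgb4 and Col17a1 summed to 4470 to 12200 CPM. In whole skin, fewer cells of a type and less RNA per cell cannot be told apart.

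Per kilobase of exon, the plaque genes and the main epidermal cadherins led in every group. In WT skin the mean level per kb was 77.7 CPM per kb for Dsp, 75.1 for Pkp1, 69.8 for Dsc3 and 59.8 for Dsg1a, and neighbours in this order overlapped between libraries. Dsc1 followed at 48.2, Dsg1b at 13.3, Dsg3 at 6.74 and Dsg2 at 1.70 CPM per kb, each apart from its neighbour above. Dsc2 at 1.10 overlapped Dsg2, and Dsg4 was last at 0.0141 CPM per kb. In KO skin Pkp1 (176), Dsp (171), Dsc3 (136), Dsg1a (109) and Dsc1 (80.7 CPM per kb) held the upper 5 places, with overlap between neighbours. In the WT+ZnO NPs-labelled libraries, Dsc1 was eighth at 5.27 CPM per kb and its neighbours, Dsg2 at 5.59 and Dsg4 at 4.65, overlapped it.

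**Figure D1:**
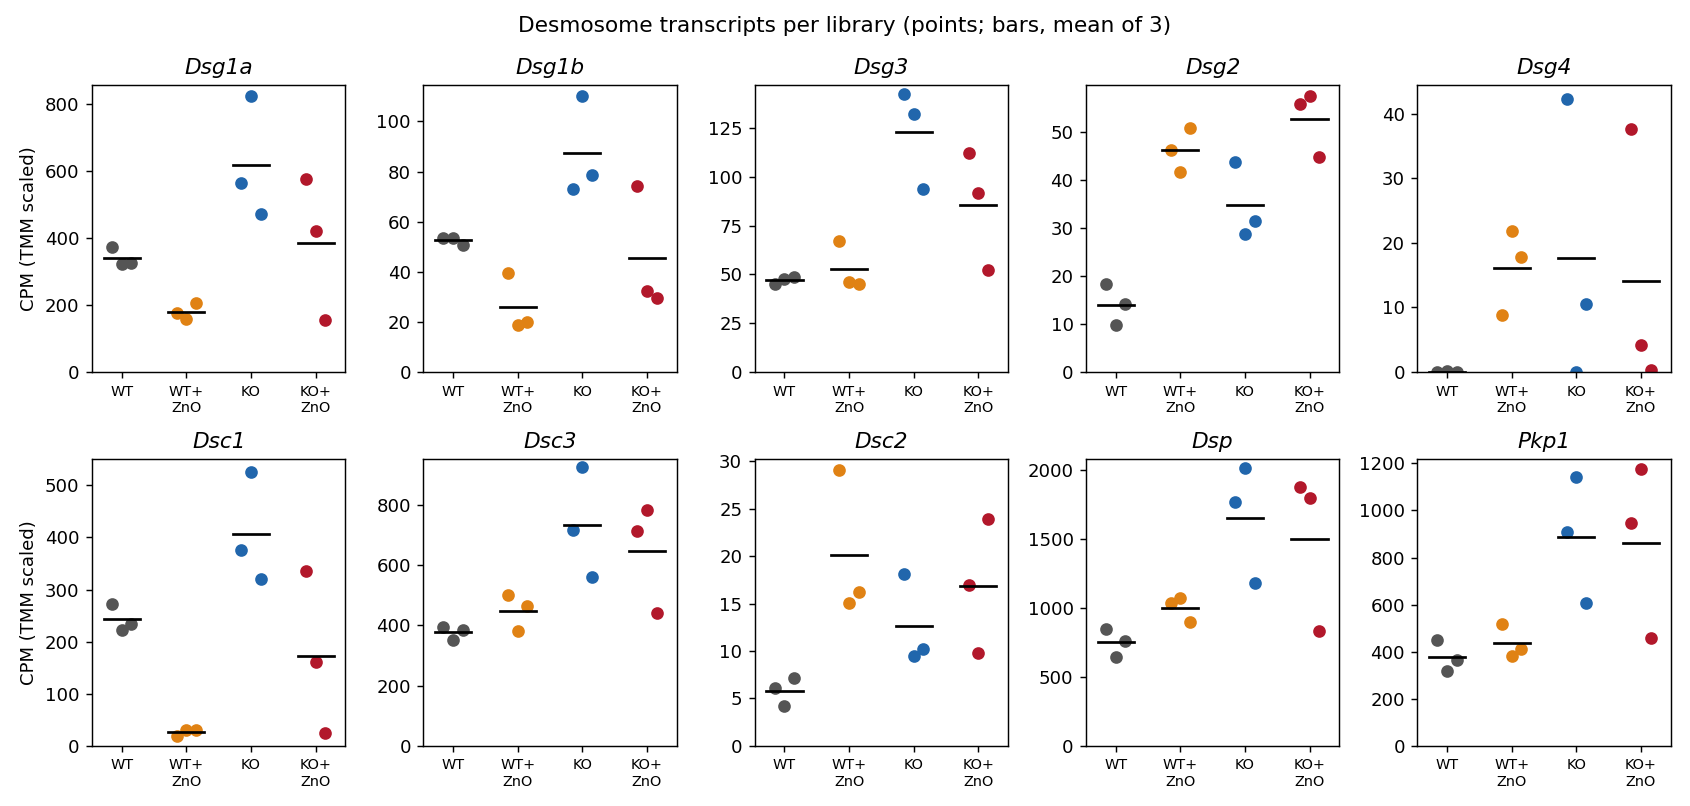
Level of each desmosome transcript in the 12 libraries, with 1 panel per gene, the 4 groups on the horizontal axis and TMM-scaled CPM on a linear vertical axis that starts at 0. Points are libraries and bars are means of 3. For all members but Dsg4 the KO points lie above the WT points, and Dsc1 lies at 19.3 to 30.8 CPM in the WT+ZnO NPs-labelled libraries.

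Dsg1a and Dsg1b encode copies of desmoglein 1, the main desmoglein of the upper epidermis. Dsg1a was at 373, 324 and 324 CPM in WT, 563, 823 and 471 in KO, 176, 157 and 207 in the WT+ZnO NPs-labelled libraries, and 575, 419 and 157 in those labelled KO+ZnO NPs. The KO libraries lay above and the WT+ZnO NPs-labelled libraries below all WT libraries, and those labelled KO+ZnO NPs spanned all other groups except the highest KO library. Dsg1b was at 53.6, 53.7 and 50.6 CPM in WT, 73.2, 110 and 78.6 in KO, 39.4, 18.8 and 20.0 in the WT+ZnO NPs-labelled libraries, and 74.2, 32.4 and 29.5 in those labelled KO+ZnO NPs, with the same placing of KO and WT+ZnO NPs around WT. Dsg3, the desmoglein of the basal layer, was at 45.2, 47.4 and 48.5 CPM in WT and 142, 132 and 93.5 in KO, so the KO libraries all lay higher. It was at 67.0, 46.3 and 45.1 in the WT+ZnO NPs-labelled libraries, which overlapped WT, and at 112, 91.5 and 52.2 in those labelled KO+ZnO NPs.

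Among the desmocollins, Dsc1 belongs to the differentiating layers. It was at 273, 222 and 234 CPM in WT, 375, 526 and 321 in KO, 19.3, 30.8 and 29.7 in the WT+ZnO NPs-labelled libraries, and 335, 161 and 24.0 in those labelled KO+ZnO NPs. The 3 KO+ZnO NPs-labelled libraries thus differed among themselves, replicate 1 with a level inside the KO range and replicate 3 with one inside the WT+ZnO NPs range. Dsc3, the desmocollin of the basal layer, was at 396, 351 and 384 CPM in WT, 716, 925 and 560 in KO, 500, 381 and 465 in the WT+ZnO NPs-labelled libraries, and 714, 784 and 442 in those labelled KO+ZnO NPs. All KO libraries lay above WT, and the WT+ZnO NPs-labelled libraries overlapped WT.

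The broad epithelial members were low in WT skin. Dsg2, desmoglein 2, was at 18.3, 9.76 and 14.1 CPM in WT, 43.7, 28.8 and 31.5 in KO, 46.2, 41.7 and 50.8 in the WT+ZnO NPs-labelled libraries, and 55.8, 57.4 and 44.9 in those labelled KO+ZnO NPs. All 9 other libraries lay above the highest WT library. Dsc2, desmocollin 2, was at 6.09, 4.21 and 7.18 CPM in WT, 18.1, 9.52 and 10.2 in KO, 29.04, 15.1 and 16.2 in the WT+ZnO NPs-labelled libraries, and 16.9, 9.83 and 23.9 in those labelled KO+ZnO NPs. Again every library of the other 3 groups lay above WT.

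Dsg4, the desmoglein of the hair shaft, was close to absent from WT skin, with 1, 3 and 0 counts. It had 219, 479 and 451 counts in the WT+ZnO NPs-labelled libraries, or 8.76, 21.9 and 17.8 CPM. In KO it had 995, 2 and 239 counts (42.3, 0.0804 and 10.5 CPM), and in the KO+ZnO NPs-labelled libraries 861, 82 and 8 counts (37.6, 4.13 and 0.348 CPM). KO replicate 2 was at the WT level, so KO and WT overlapped, and the other groups lay above WT. Against the 4 counts of the pooled WT libraries, the share of counts was 325 times as high in the WT+ZnO NPs-labelled libraries (exact 95% interval 127 to 1200), 329 times in KO (128 to 1210) and 266 times in those labelled KO+ZnO NPs (104 to 978). These intervals cover counting error only, and the spread between libraries is wider than they show. Of the 951 counts in the KO+ZnO NPs-labelled libraries, 861 were in replicate 1, and without it the ratio was 38.1 (14.4 to 143). Without KO replicate 1 the KO ratio was 96.6 (37.2 to 357), and without KO replicate 2 it was 509 (198 to 1870).

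Of the plaque genes, Dsp (desmoplakin) had the highest CPM of all members. It was at 849, 644 and 760 CPM in WT, 1767, 2011 and 1182 in KO, 1035, 1068 and 893 in the WT+ZnO NPs-labelled libraries, and 1876, 1795 and 829 in those labelled KO+ZnO NPs. The KO libraries and those labelled WT+ZnO NPs lay above WT. Pkp1, plakophilin 1, which strengthens desmosomes of stratified epithelia, was at 449, 319 and 364 CPM in WT, 907, 1142 and 608 in KO, 517, 383 and 410 in the WT+ZnO NPs-labelled libraries, and 946, 1177 and 460 in those labelled KO+ZnO NPs. KO lay above WT for Pkp1, and the WT+ZnO NPs-labelled libraries overlapped WT.

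Between KO and WT skin, 5 of the 10 members were higher in KO: Dsg2 and Dsg3 among the desmogleins, Dsc3 among the desmocollins, and both plaque genes Dsp and Pkp1. Calls were made at an adjusted p below 0.05 in the quasi-likelihood test of edgeR with Benjamini-Hochberg adjustment over all 18822 genes. Of these genes 8.18% were called in this comparison, and 4.61% were called higher. The median log2 fold change was 1.13 over the members and 0.01 over all genes. The KO libraries all lay above the WT libraries for 9 members, while 18.6% of all genes did so and 38.5% did not overlap in either direction. Dsg3 rose by a log2 fold change of 1.38 (SE 0.27, adjusted p = 0.0140) and Dsg2 by 1.30 (SE 0.23, adjusted p = 0.00961). The log2 fold change was 1.23 (SE 0.33, adjusted p = 0.0484) for Pkp1, 1.14 (SE 0.31, adjusted p = 0.0468) for Dsp and 0.96 (SE 0.24, adjusted p = 0.0368) for Dsc3. These values lie within 1.91 to 2.57 as folds of the geometric means.

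The other 5 members were not called in KO against WT by edgeR in the fit of all libraries. DESeq2 called 7 members, among them Dsc2 and Dsg4, against 13.8% of all genes. Dsc2 had a log2 fold change of 1.11 (SE 0.39, adjusted p = 0.105, and 0.0455 with DESeq2), Dsg1a of 0.86 (SE 0.38, adjusted p = 0.178), Dsc1 of 0.74 (SE 0.64, adjusted p = 0.504) and Dsg1b of 0.73 (SE 0.37, adjusted p = 0.241). Dsg4, whose fitted value of 8.26 (SE 2.30, adjusted p = 0.0520) depends on the prior count, also missed the threshold, and DESeq2 called it with an adjusted p of 0.000146 (0.000146 to 0.170 over its alternatives). With only the 6 libraries compared, 8 of the 9 members then tested were called, against 15.9% of all genes, and these included Dsg1a (adjusted p = 0.0387), Dsg1b (adjusted p = 0.0282) and Dsc1 (adjusted p = 0.0461). Dsp and Pkp1 lost their calls with RLE scaling (adjusted p = 0.0503 and 0.0506). The Dsg2 call held when any library was left out, and Dsg3 lost its call without WT replicate 2 (adjusted p = 0.0664). Dsc3 lost it without any 1 WT library, KO replicate 1 or 2, or WT+ZnO NPs replicate 3 (adjusted p = 0.0536 to 0.145). Dsp lost it without any 1 library of WT or of WT+ZnO NPs, or KO replicate 1 or 2 (adjusted p = 0.0593 to 0.180), and Pkp1 without any of these or KO+ZnO NPs replicate 1 (adjusted p = 0.0556 to 0.181). Calls were gained by Dsg4 without KO replicate 2 or without KO+ZnO NPs replicate 1 or 3 (adjusted p = 0.0271 to 0.0365), and by Dsg1a without KO+ZnO NPs replicate 3 (adjusted p = 0.0350). The number of members called was 1 to 3 without any 1 library of WT or of WT+ZnO NPs, or without KO replicate 1 or 2, with 1 (Dsg2) without WT replicate 2, and it was 7 without KO+ZnO NPs replicate 3. The share of all genes called ranged from 1.94% (without WT replicate 2) to 10.6% (without KO+ZnO NPs replicate 3) in these fits. With Y-linked transcripts as a covariate, or without KO replicate 1 and KO+ZnO NPs replicate 1, which hold them, 2 members were called, Dsg2 and Dsg3, against 5.08% and 3.7% of all genes. The log2 fold changes of Dsc3, Dsp and Pkp1 were then 0.93, 1.03 and 1.19 with the covariate (adjusted p = 0.0729 to 0.0933) and 0.98, 1.09 and 1.21 without those libraries (adjusted p = 0.0874 to 0.114), close to those of the reported fit.

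**Figure D2:**
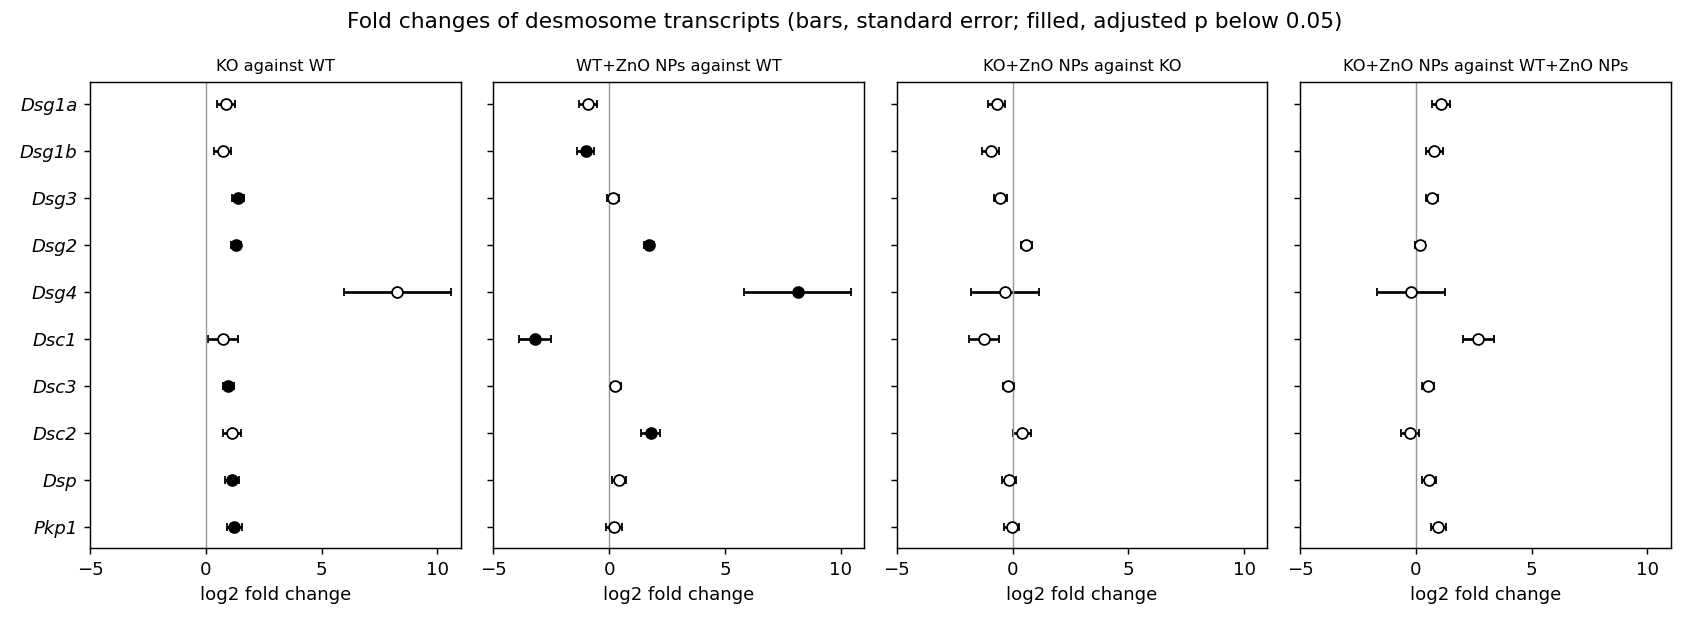
Log2 fold change of each member in the 4 pairwise comparisons from the edgeR fit, with horizontal bars for the approximate standard error and filled points where the adjusted p is below 0.05. The KO against WT panel has 5 filled points, all right of 0, the WT+ZnO NPs against WT panel has 3 right and 2 left of 0, and the panels of KO+ZnO NPs have no filled point.

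Between the WT+ZnO NPs-labelled libraries and WT, members went in both directions. This comparison shares its WT libraries with that of KO against WT. Dsg2, Dsc2 and Dsg4 rose, and Dsc1 and Dsg1b fell. The 5 of 10 called stand beside 43% of all genes called in this comparison, a share near the background, and the 6 called by DESeq2 beside 37.9%. Dsc1 fell by 3.19 on the log2 scale (SE 0.69, adjusted p = 0.00419), to a geometric mean fold of 0.107. Dsg1b fell by 1.01 (SE 0.37, adjusted p = 0.0478). Dsg1a had a log2 fold change of -0.92 (SE 0.38, adjusted p = 0.0724) and missed the threshold, although its groups did not overlap. It was called lower by DESeq2 (-0.93, adjusted p = 0.0448) and by edgeR with only the 6 libraries compared (-0.88, adjusted p = 0.00287). Among the members that rose, Dsc2 had a log2 fold change of 1.79 (SE 0.40, adjusted p = 0.00495) and Dsg2 of 1.72 (SE 0.23, adjusted p = 0.000296), with geometric mean folds of 3.38 and 3.39. Dsg4 had a fitted log2 fold change of 8.14 (SE 2.30, adjusted p = 0.0159).

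The basal layer and plaque members were not called between the WT+ZnO NPs-labelled libraries and WT. Their log2 fold changes were 0.41 (SE 0.30, adjusted p = 0.293) for Dsp, 0.25 (SE 0.24, adjusted p = 0.415) for Dsc3, 0.21 (SE 0.33, adjusted p = 0.629) for Pkp1 and 0.17 (SE 0.26, adjusted p = 0.630) for Dsg3. In 7 members the groups did not overlap, 4 higher and 3 lower, against 59.4% of all genes. The calls of Dsc1, Dsg2 and Dsc2 held when any library was left out, Dsc1 with log2 fold changes of -3.31 to -3.01. Dsg4 lost its call without any 1 WT library (adjusted p = 0.0512 to 0.0566). Dsg1b lost its call without any 1 library of WT or KO, WT+ZnO NPs replicate 2 or 3, or KO+ZnO NPs replicate 2 (adjusted p = 0.0505 to 0.152). It also lost it with library size only (log2 fold change -0.91, adjusted p = 0.0677), a fit with 4 members and 44.3% of all genes called. Dsg1a gained a call without KO+ZnO NPs replicate 1 or 3 (adjusted p = 0.00955 to 0.0454). The number of members called was 3 without any 1 of the WT libraries, where 31% to 33.5% of all genes were called, a share like that of the members. With Y-linked transcripts as a covariate it was 2, Dsc1 and Dsg2, and 20.8% of all genes were called. The log2 fold changes with that covariate were -1.54 for Dsg1b (adjusted p = 0.0595), 1.32 for Dsc2 (adjusted p = 0.121) and 4.58 for Dsg4 (adjusted p = 0.157).

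Between the KO+ZnO NPs-labelled libraries and KO, edgeR called 0 of 10 members against 14.7% of all genes, DESeq2 called 0 against 20.6%, and 2 had an unadjusted p below 0.05. Dsg1b had a log2 fold change of -0.94 (SE 0.37, adjusted p = 0.105) and Dsg2 of 0.60 (SE 0.23, adjusted p = 0.0933). Dsc1 was at -1.23 (SE 0.64, adjusted p = 0.208), Dsg1a at -0.69 (SE 0.38, adjusted p = 0.232) and Dsg3 at -0.52 (SE 0.26, adjusted p = 0.194). The remaining 5 lay between -0.33 and 0.42 with adjusted p of 0.478 or more. Groups were apart only for Dsg2, against 34.7% of all genes. Without KO+ZnO NPs replicate 1, Dsg1b (log2 fold change -1.50, adjusted p = 0.0165) and Dsc1 (-2.14, adjusted p = 0.0456) were called lower. In that fit 16.4% of all genes were called, a share near that of the members.

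Between the KO+ZnO NPs-labelled libraries and WT+ZnO NPs, edgeR again called 0 of 10 members against 3.28% of all genes. DESeq2 called 3 (Dsg1a, Dsc1 and Pkp1) against 11.8% of all genes, and 4 had an unadjusted p below 0.05 in edgeR. Dsc1 came nearest, with a log2 fold change of 2.70 (SE 0.68, adjusted p = 0.0535), followed by Pkp1 with 0.98 (SE 0.33, adjusted p = 0.106) and Dsg1a with 1.09 (SE 0.38, adjusted p = 0.114). All 10 members overlapped between these groups, while 23.7% of all genes did not. Leaving out KO+ZnO NPs replicate 3 gave 5 members called higher, against 8.26% of all genes called in that fit. They were Dsc1 (log2 fold change 3.21, adjusted p = 0.00534), Dsg1a (1.46, adjusted p = 0.0131), Pkp1 (1.27, adjusted p = 0.0240), Dsg3 (0.94, adjusted p = 0.0287) and Dsp (0.87, adjusted p = 0.0474). That library had the lowest level of its group for 9 of the members and the highest for Dsc2.

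The interaction, which tests whether the ZnO NP difference differs between the genotype labels, gave 0 of 10 members called by edgeR against 8.68% of all genes, with 3 below an unadjusted p of 0.05 and 2 called by DESeq2 against 16% of all genes. Dsg2 had the lowest adjusted p, with -1.12 on the log2 scale (SE 0.32, adjusted p = 0.0553), and DESeq2 called it with an adjusted p of 0.0153 (0.0153 to 0.342 over its alternatives). Dsg4 was at -8.47 (SE 2.74, adjusted p = 0.0773), and DESeq2 called it at -8.65 with an adjusted p of 0.00679 (0.00679 to 0.264 over its alternatives). Dsc2 was at -1.37 (SE 0.55, adjusted p = 0.138) and Dsc1 at 1.96 (SE 0.91, adjusted p = 0.190). A call appeared without WT replicate 1 (Dsg2, adjusted p = 0.0382), without KO replicate 2 (Dsg4, adjusted p = 0.0404), without KO+ZnO NPs replicate 1 (Dsg4, adjusted p = 0.0376) and without KO+ZnO NPs replicate 3 (Dsc1, adjusted p = 0.0160).

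The makeup of each cadherin family was taken as the share of a member in the summed CPM per kb of the family members followed here. Among desmocollins, Dsc1 made up 40.4% ± 1.57 in WT, 36.8% ± 1.33 in KO, 5.87% ± 1.98 in the WT+ZnO NPs-labelled libraries and 18.6% ± 13.9 in those labelled KO+ZnO NPs (SD, n = 3). The share in KO (35.3% to 37.6%) lay just below that in WT (39.0% to 42.1%), although the Dsc1 level was higher in every KO library. In the KO+ZnO NPs-labelled libraries it was 32.9%, 17.8% and 5.21%, from near KO to the range of those labelled WT+ZnO NPs (3.75% to 7.67%). Dsc3 made up the larger part throughout, 58.6% ± 1.46 in WT and 90.1% ± 1.19 in the WT+ZnO NPs-labelled libraries, and Dsc2 stayed at or below 5.40% in all libraries.

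Among desmogleins, Dsg1a held 73.3% ± 1.22 in WT, 68.5% ± 5.28 in KO, 56.4% ± 4.54 in the WT+ZnO NPs-labelled libraries and 64.9% ± 7.10 in those labelled KO+ZnO NPs. Dsg2 held 2.07% ± 0.519 in WT and 9.98% ± 0.430 in the WT+ZnO NPs-labelled libraries, and the groups did not overlap. Its share in KO, 2.77% ± 0.860, overlapped WT, and it was 7.47% ± 3.51 in the KO+ZnO NPs-labelled libraries. Dsg4 held 0.0175% ± 0.0196 in WT, 8.49% ± 4.10 in the WT+ZnO NPs-labelled libraries, 0.0119% to 7.84% in KO and 0.209% to 7.04% in those labelled KO+ZnO NPs. Dsg3 held 8.30% ± 0.806 in WT and 13.5% ± 2.76 in the WT+ZnO NPs-labelled libraries. These shares are descriptions with no test.

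**Figure D3:**
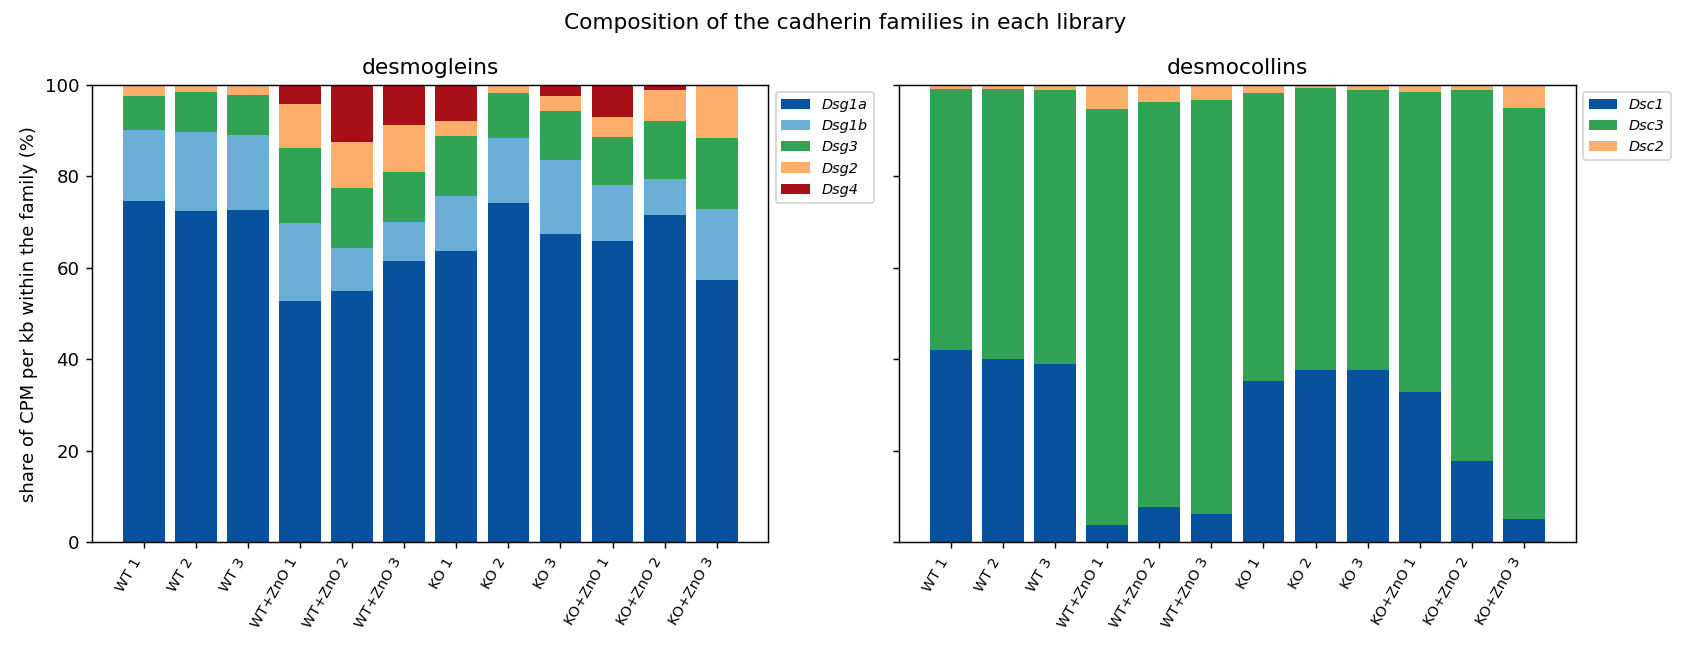
Share (%) of each desmoglein, left, and desmocollin, right, in the summed CPM per kb of its family, with 1 stacked bar per library. Dsc1 fills 39.0% to 42.1% of the desmocollin bar in WT and 3.75% to 7.67% in the WT+ZnO NPs-labelled libraries, and Dsg4 is visible in 7 libraries with a share of at least 1.15%.

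The members' levels were compared with each other across the 12 libraries. Log2 CPM of Dsc3 and Pkp1 had a Pearson r of 0.98 (0.96 after removal of the group means), Dsp and Pkp1 of 0.96 (0.93), and Dsg1a and Dsc1 of 0.94 (0.94). These pairs did not stand apart from all others within groups, where r was 0.88 for Dsg1a with Dsp and 0.87 with Dsc3, 0.85 for Dsc1 with Dsp and 0.72 with Pkp1. Dsg1b had within-group r of 0.72 with Dsg3, 0.60 with Dsg1a, 0.53 with Dsc3, 0.49 with Dsc1, 0.48 with Dsp and 0.47 with Pkp1. Dsg2 and Dsc2 had r of 0.83 over all libraries and 0.31 within groups, and Dsg4 with Dsg1a had -0.07 and 0.27. These are descriptions over libraries that share their groups and cell makeup. Outside the members, Dsg4 was most like Krt72 (r = 0.99), a keratin of the inner root sheath, Padi3 (0.99), a peptidylarginine deiminase of the follicle, and Krt33b (0.99), a hair shaft keratin. Dsc1 was most like Endou (0.98), Dkkl1 (0.98) and Nipal1 (0.98), Dsg2 like Emp2 (0.98), Tfap2c (0.98) and Fgfr2 (0.97), and Dsp like Cep170b (0.98), Fam83g (0.98) and Ankrd13c (0.97). Within groups r stayed at 0.98 for Krt72 with Dsg4 and was 0.67 for Fgfr2 with Dsg2.

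Markers of the layers and of the follicle were read beside these members. The 6 suprabasal markers, Krt1, Krt10, Krt77, Lor, Flg and Ivl, summed to 5710 to 9860 CPM in WT, 8660 to 18100 in KO, 1290 to 1720 in the WT+ZnO NPs-labelled libraries and 2140 to 10000 in those labelled KO+ZnO NPs. Of these markers, 5 of 6 fell between the WT+ZnO NPs-labelled libraries and WT, beside the fall of Dsc1, in a comparison where 22.1% of all genes were called lower. KO+ZnO NPs replicate 1 had the highest suprabasal sum of its group and replicate 3 the lowest, as for Dsc1. The part of this shift in the Dsc1 and Dsg1 results was not tested. Basal keratinocyte markers summed to 4470 to 6170 CPM in WT and 6740 to 10800 in KO, all above WT. Between KO and WT edgeR called 0 of 6, against 8.18% of all genes, and DESeq2 called 2, against 13.8%. In edgeR 2 were below an unadjusted p of 0.05, and the part of these markers in the KO result was not tested. In the WT+ZnO NPs-labelled libraries they summed to 6430 to 11100, all above WT, with 2 of 6 called higher against 20.8% of all genes, while the basal layer members Dsg3 and Dsc3 overlapped WT and were not called.

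Hair shaft markers, of which 8 of 9 were used, summed to 1.09 to 3.95 CPM in WT, where Krt31, Krt34, Krt81 and Krt86 had 3 or fewer counts in every library. The sum was 576 to 1600 in the WT+ZnO NPs-labelled libraries, 9.36 to 1310 in KO and 55.7 to 1070 in those labelled KO+ZnO NPs. KO replicate 2, with 2 counts of Dsg4, had the sum of 9.36 CPM, and KO replicate 1, with 995 counts, that of 1310 CPM. The 8 inner root sheath markers summed to 4.53 to 8.20 CPM in WT and to 22.8, 3610 and 12600 in KO replicates 2, 3 and 1. In KO+ZnO NPs replicates 1, 2 and 3 they summed to 9010, 6720 and 223 CPM, beside Dsg4 at 37.6, 4.13 and 0.348 CPM. In WT+ZnO NPs replicates 1, 2 and 3 the sums were 826, 3560 and 5170 CPM, beside Dsg4 at 8.76, 21.9 and 17.8 CPM. Hair shaft markers called higher were 3 of 8 in KO and 5 of 8 in the WT+ZnO NPs-labelled libraries, and inner root sheath markers 6 and 8 of 8, each against WT. Of all genes, 4.61% were called higher in the KO comparison and 20.8% in the other. The level of Dsg4 per hair shaft cell and the amount of growing follicle in a library cannot be told apart.

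Markers of other cell types were read in the same way. Fibroblast markers summed to 7050 to 13900 CPM in WT and 23200 to 37300 in KO. For these markers edgeR called 0 of 6 between KO and WT, against 8.18% of all genes, and DESeq2 called 3, against 13.8%. In edgeR 4 were below an unadjusted p of 0.05. The larger sum was mostly that of the collagens, such as Col1a1 with a mean of 2030 CPM in WT and 8090 in KO, whereas of the 3 other markers Dcn had means of 2080 and 1800 CPM, Pdgfra of 248 and 243, and Lum of 378 and 892. Adipocyte markers summed to 4500 to 6460 CPM in WT, 1550 to 3140 in KO and 637 to 1380 in the WT+ZnO NPs-labelled libraries. Immune cell markers summed to 702 to 818 CPM in WT, 268 to 577 in KO and 35.5 to 79.4 in the WT+ZnO NPs-labelled libraries, and melanocyte markers to 12.5 to 34.0, 40.7 to 192 and 368 to 1150. Sebaceous markers summed to 236 to 474 CPM in WT, 145 to 189 in KO and 649 to 1590 in the WT+ZnO NPs-labelled libraries, and skeletal muscle markers to 4700 to 5760, 1520 to 5100 and 5340 to 19600. In the KO+ZnO NPs-labelled libraries the sums were 77.2 to 140 CPM for immune, 274 to 462 for melanocyte, 307 to 1460 for sebaceous, 2780 to 15200 for skeletal muscle, 15800 to 21500 for fibroblast and 1040 to 3790 for adipocyte markers. Between these libraries and KO, 4 of 5 immune markers were called, all lower, and 3 of 5 sebaceous markers, all higher, against 14.7% of all genes called in either direction. KO+ZnO NPs replicate 3, whose removal changed the member calls, had the highest sebaceous and skeletal muscle sums of its group. The KO sums did not overlap those of WT for the fibroblast, adipocyte, immune, melanocyte and sebaceous lists. The same held for the basal keratinocyte, hair shaft and inner root sheath lists. Their part in the member results was not tested.

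**Figure D4:**
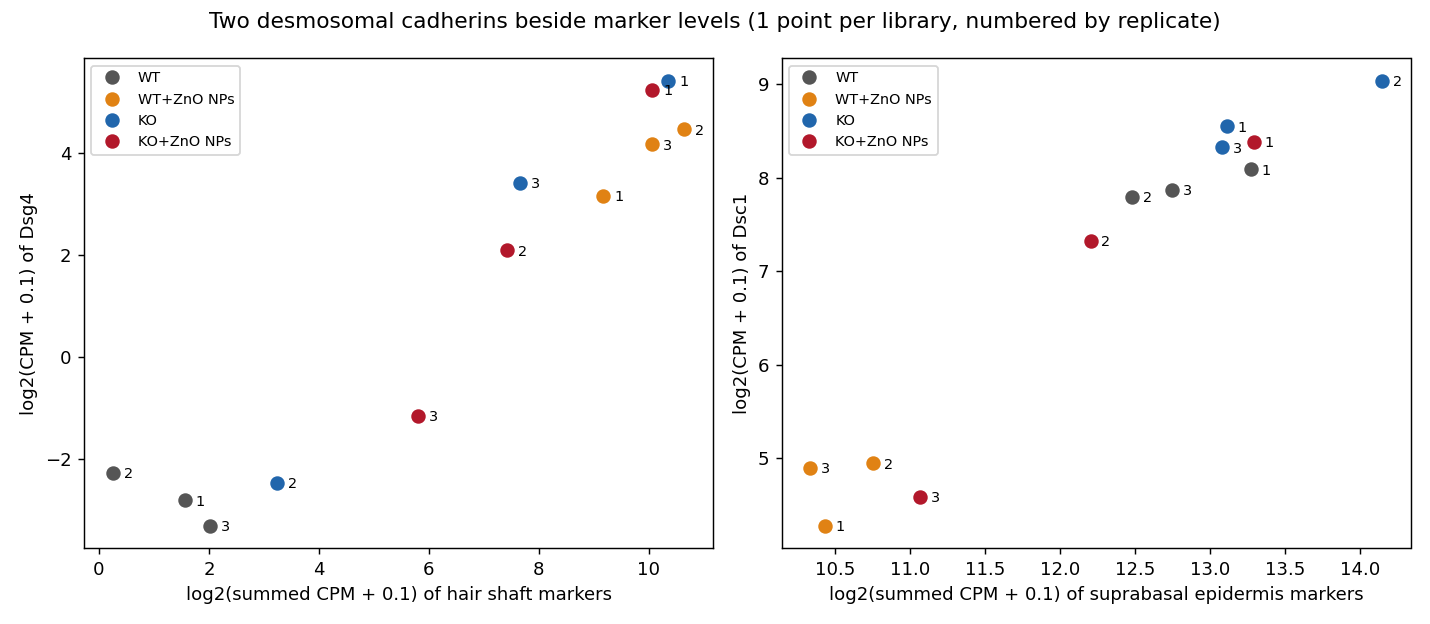
Left, Dsg4 against the summed hair shaft markers, and right, Dsc1 against the summed suprabasal markers, both as log2(CPM + 0.1), with 1 point per library, coloured by group and numbered by replicate. The 3 WT libraries and KO replicate 2 sit at the lower left of the Dsg4 panel, and the 3 WT+ZnO NPs-labelled libraries with KO+ZnO NPs replicate 3 at the lower left of the Dsc1 panel.

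Among 9 further desmosome proteins (Dsg1c, Jup, Pkp2, Pkp3, Pkp4, Perp, Cdsn, Evpl and Ppl), 2 were higher in KO than in WT, where 4.61% of all genes were. Pkp3, plakophilin 3, rose by a log2 fold change of 1.10 (adjusted p = 0.0304), and Dsg1c by 2.82 (adjusted p = 0.0125) from a WT mean of 0.174 CPM, where reads shared with the other Dsg1 copies make it uncertain. Jup, which encodes plakoglobin, had 0.91 (adjusted p = 0.0633). In the WT+ZnO NPs-labelled libraries against WT, 3 of 9 were called, a share below the 43% of all genes called there. Of these, Dsg1c (2.21, adjusted p = 0.00765) and Pkp3 (0.95, adjusted p = 0.0139) rose, and Cdsn, corneodesmosin of the cornified layer, fell by 2.58 (adjusted p = 0.0235). The list's median log2 fold change was 0.83 and 0.29 in these comparisons.

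Of the 4 keratins that desmoplakin anchors, Krt5, Krt14, Krt1 and Krt10, edgeR called 0 between KO and WT, DESeq2 called 3, against 13.8% of all genes, and 3 had an unadjusted p below 0.05. Between the WT+ZnO NPs-labelled libraries and WT, 3 of 4 were called, against 43% of all genes. The basal keratin Krt5 rose by 0.95 (adjusted p = 0.0182), and the suprabasal Krt1 and Krt10 had log2 fold changes of -2.12 (adjusted p = 0.00892) and -2.31 (adjusted p = 0.00436), both lower. Krt1 was higher in the KO+ZnO NPs-labelled libraries than in those labelled WT+ZnO NPs, by 2.71 (adjusted p = 0.0362).

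Of 9 regulators of desmosome genes or assembly (Trp63, Grhl1, Grhl3, Klf4, Kazn, Tchp, Ripk4, Prkca and Tmem79), 3 were higher in KO than in WT, where 4.61% of all genes were, and 6 in the WT+ZnO NPs-labelled libraries than in WT, where 20.8% of all genes were. Trp63, the p63 factor of basal keratinocytes, rose by 1.17 (adjusted p = 0.0268) and 1.62 (adjusted p = 0.00100) in these comparisons. Ripk4, a kinase that phosphorylates plakophilin 1, rose by 1.29 (adjusted p = 0.00827) and 1.49 (adjusted p = 0.000528). Kazn, whose product kazrin binds desmosomal plaque proteins, rose by 1.22 (adjusted p = 0.0318) and 1.16 (adjusted p = 0.00907). It was the only gene of the list called by edgeR in the interaction, at -1.73 (adjusted p = 0.0304), against 8.68% of all genes. DESeq2 called 3 there, against 16% of all genes, and 4 had an unadjusted p below 0.05 in edgeR. Tchp, which encodes trichoplein, was lower in the KO+ZnO NPs-labelled libraries than in those labelled WT+ZnO NPs, by -0.93 (adjusted p = 0.0480).

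The proteases that cut desmosomal cadherins, and their inhibitor, were read as a further list. Of Klk5, Klk7, Klk14, Adam10, Adam17 and Spink5, 5 of 6 fell between the WT+ZnO NPs-labelled libraries and WT, a comparison in which 22.1% of all genes were called lower. Spink5, the inhibitor of the kallikreins, fell by 3.22 (adjusted p = 0.00295), Klk5 fell by 2.74 (adjusted p = 0.00354) and Klk7 fell by 2.06 (adjusted p = 0.00315). These are genes of the upper epidermis, whose markers fell in the same libraries, and the part of that fall was not tested. Adam17 (-1.01, adjusted p = 0.000666) and Adam10 (-0.70, adjusted p = 0.00980) were also called lower. Between KO and WT edgeR called 0 of 6, against 8.18% of all genes, DESeq2 called 0, against 13.8%, and 1 had an unadjusted p below 0.05. Between the KO+ZnO NPs-labelled libraries and KO, Adam17, a sheddase of cell surface proteins, fell by 0.74 (adjusted p = 0.0154). It was the only gene of the list called by edgeR there, against 14.7% of all genes, and DESeq2 called 2, against 20.6%.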

How the data were processed

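Skin RNA of 12 libraries, 3 in each of 4 groups taken from the sample labels, was sequenced. The table the authors deposited holds raw counts of reads on each gene in each library. The study's methods name STAR and HTSeq, and the submitters' processing notes name HISAT2 2.0.5 and mm10. The annotation release and strand setting are not given in the sources used here. HTSeq by default drops reads that overlap several genes. Of 52636 genes, 52403 matched a symbol in GENCODE M21, and 0 entries named no gene. Replicates differed by more than sampling noise (chi-square per degree of freedom 37.37 to 161.8).

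Counts were tested in R 4.3.3 with edgeR 4.0.16 (glmQLFit and glmQLFTest, TMM factors, filterByExpr, a coefficient for each group, a single fit of all libraries, common dispersion 0.109), and p-values were adjusted by Benjamini-Hochberg over 18822 genes. A standard error is the fold change divided by the root of F, an approximation. Correlations used log2 CPM with a prior count of 2. Steps were tested on simulated data. The members and lists were chosen with earlier results of these data known. All members were named. Of the other lists, up to 3 called genes with the largest change were named per comparison, and for Dsg4, Dsc1, Dsg2 and Dsp the 3 genes of at least 5 mean CPM with the highest correlation. Jup, Col1a1, Dcn, Lum and Pdgfra were named after their values were seen. Alternatives were RLE scaling, library size only, DESeq2 1.42.0, only the 6 libraries compared, no filter, at least 10 counts in every library, a replicate block, Y-linked transcripts as a covariate, the 2 KO libraries that hold them left out, and each library left out. A fit of the 9 libraries not labelled WT+ZnO NPs was added after seeing the data.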

Additional observations from a re-analysis of the deposited data

How the results depend on the processing

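The number of members called between KO and WT, with the share of all genes called, was 5 (8.18%) in the reported fit, 7 (13.8%) with DESeq2, 3 (7.99%) with RLE scaling, 8 of 9 tested (15.9%) with only the 6 libraries compared, 2 (5.08%) with Y-linked transcripts as a covariate, 2 (3.7%) without the 2 KO libraries that hold them, 2 (6.69%) in the fit of the 9 libraries not labelled WT+ZnO NPs, and 1 to 7 (1.94% to 10.6%) with each library left out. Between the WT+ZnO NPs-labelled libraries and WT it was 5 (43%), 2 with the Y-linked covariate (20.8%), and 3 to 6 with libraries left out (30.7% to 46.7%). Between those labelled KO+ZnO NPs and KO it was 0 (14.7%), 1 without the 2 KO libraries with Y-linked transcripts (13.1%), and 0 to 2 with libraries left out (2.34% to 16.4%). Between those labelled KO+ZnO NPs and WT+ZnO NPs it was 0 (3.28%), 3 with DESeq2 (11.8%), 1 with at least 10 counts in every library (5.44%), and 0 to 5 with libraries left out (0.00517% to 8.26%). The interaction gave 0 (8.68%), 1 with library size only (8.82%), 2 with DESeq2 (16%), 1 with at least 10 counts in every library (11.7%), 1 with the replicate block (7.59%) and 0 to 1 with libraries left out (2.38% to 8.45%). The cause of these changes was not tested.

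Replicate numbers did not pair the libraries: same-numbered libraries had residual correlations of -0.343 to 0.429, -0.063 to 0.163 and -0.046 to 0.118 for numbers 1, 2 and 3, and 6 of 12 libraries correlated best with their own number. With the replicate block the counts, with the share of all genes called, were 5 (6.58%), 5 (42.9%), 0 (13.8%) and 0 (3.33%) in the pairwise comparisons and 1 (Dsg2, 7.59%) in the interaction.

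Direction changed only in log2 fold changes that were not called. With the Y-linked covariate it did so for Dsg3 between the WT+ZnO NPs-labelled libraries and WT (-0.331), and for Dsg4 (0.887) and Dsc2 (0.073) between those labelled KO+ZnO NPs and WT+ZnO NPs. In the interaction it did so without the 2 KO libraries with Y-linked transcripts for Dsg1a (-0.243) and Dsg1b (-0.589), and with library size only for Dsg1b (-0.062). With each library left out, the range was -0.042 to 0.269 for Dsg3 between the WT+ZnO NPs-labelled libraries and WT. Between those labelled KO+ZnO NPs and KO it was -2.99 to 1.41 for Dsg4, -0.347 to 0.051 for Dsc3, -0.336 to 0.173 for Dsp and -0.312 to 0.282 for Pkp1. Between those labelled KO+ZnO NPs and WT+ZnO NPs it was -2.86 to 0.358 for Dsg4 and -0.596 to 0.112 for Dsc2. In the interaction it was -0.180 to 0.584 for Dsg1a, -0.478 to 0.498 for Dsg1b and -0.562 to 0.033 for Pkp1. The 0 to 3 counts of Dsg4 in WT limit the precision of its ratios.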
